A study of Homo sapiens with 2 samples.

Results

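Cholesterol and fatty acid synthesis was followed through 32 genes of the pathway and its regulation. They were read in MEG-01 cells that expressed GAS2DN and in MEG-01 cells that carried the Venus vector. The genes were chosen with earlier results of these data known, so comparisons with all genes below are descriptive. The genes comprised 18 of sterol synthesis, 6 that regulate it and 8 of fatty acid synthesis and desaturation. MEG-01 is a megakaryoblastic line from chronic myeloid leukemia (CML). GAS2DN is a truncated form of GAS2, a cytoskeleton-associated inhibitor of calpain, that acts as a dominant negative. A lentivirus expressed it from the spleen focus forming virus promoter together with the yellow fluorescent protein Venus, and the other cells received the control lentivirus with Venus. Both populations were grown in RPMI1640 with serum and sorted by FACS, so both had been transduced, and untransduced cells were not analysed here. For each condition, RNA of 3 extracts was mixed in equal amounts and read on a single Affymetrix U133 Plus 2.0 array, which leaves no replicates and no test between the conditions.

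In background terms, cholesterol is built from acetyl-CoA by way of mevalonate, the isoprenoid farnesyl pyrophosphate, squalene and lanosterol. When membrane sterol is low, the escort protein SCAP carries the SREBP transcription factors, encoded by SREBF1 and SREBF2, from the endoplasmic reticulum to the Golgi, where proteases release the part that enters the nucleus, and INSIG proteins hold SCAP back when sterol is plentiful. SREBP-2 acts mainly on sterol genes and SREBP-1c mainly on fatty acid genes, and proliferating blood cells draw on both branches for membranes.

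The authors deposited log2 MAS5 signals, and all signals here are on the linear scale unless a log2 ratio is named. A log2 ratio is the GAS2DN minus the Venus log2 signal, so that values above 0 mean a higher signal in GAS2DN cells. A probe set counted as eligible when the brighter of its 2 signals reached the median of its array, which was 69.1 on the GAS2DN and 55.6 on the Venus array. Each gene was read by its brightest probe set over both arrays, called main, where _x_at probe sets, which may bind related transcripts, were passed over if the gene had another, and it counted as measured when that probe set was eligible. Signals of different probe sets depend on their probes, so levels were not compared between genes. A single-gene probe set was held by 29 of the 32 genes, and 28 were measured, among 13086 measured of 19775 genes on the array. CYP51A1, the lanosterol demethylase, and FADS1, a desaturase, were read only by probe sets shared with other genes and were not used, and FDFT1, the squalene synthase, had no probe set of its own. The remaining unmeasured gene was IDI1, the isopentenyl pyrophosphate isomerase, whose main probe set was dim.

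Genes of sterol synthesis had mostly a higher signal in GAS2DN than in Venus cells, whereas genes of fatty acid synthesis were divided. The log2 ratio was above 0 in 14 of 15 measured sterol genes, with a median of 0.39 and a range of -0.18 to 1.05. It was above 0 in 5 of 6 regulators, with a median of 0.37, and in 3 of 7 fatty acid genes, with a median of -0.07. Among all measured genes 56.2% had a log2 ratio above 0 and the median was 0.06. The median of the sterol genes lay 0.46 above that of the fatty acid genes and 0.33 above that of all measured genes, and the median of the regulators lay 0.31 above all measured genes. Without FADS3, whose signal in GAS2DN cells was below the array median, the fatty acid genes had a median of 0.07. The arrays hold no replicate error. The spread between probe sets of 1 gene, which read different stretches of its transcripts in the same RNA, shows only how far readings within these arrays differed, and its SD in the log2 ratio was 0.44 in the brightest of 10 equal signal classes, 0.55 in the eighth and 1.17 in the fifth. Of the 28 measured members, 9 had a log2 ratio larger in size than the SD of their class, where 18.9% of all measured genes did. They were HMGCS1, MVK, LSS, HSD17B7, DHCR7, SREBF1, SREBF2, FADS2 and FADS3, and this spread holds no variation between cultures or arrays. With the second-brightest probe set of each gene in place of the brightest, the sterol median was 0.22 over 8 genes and the fatty acid median 0.25 over 6, and the difference between them was -0.024.

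**Figure D1:**
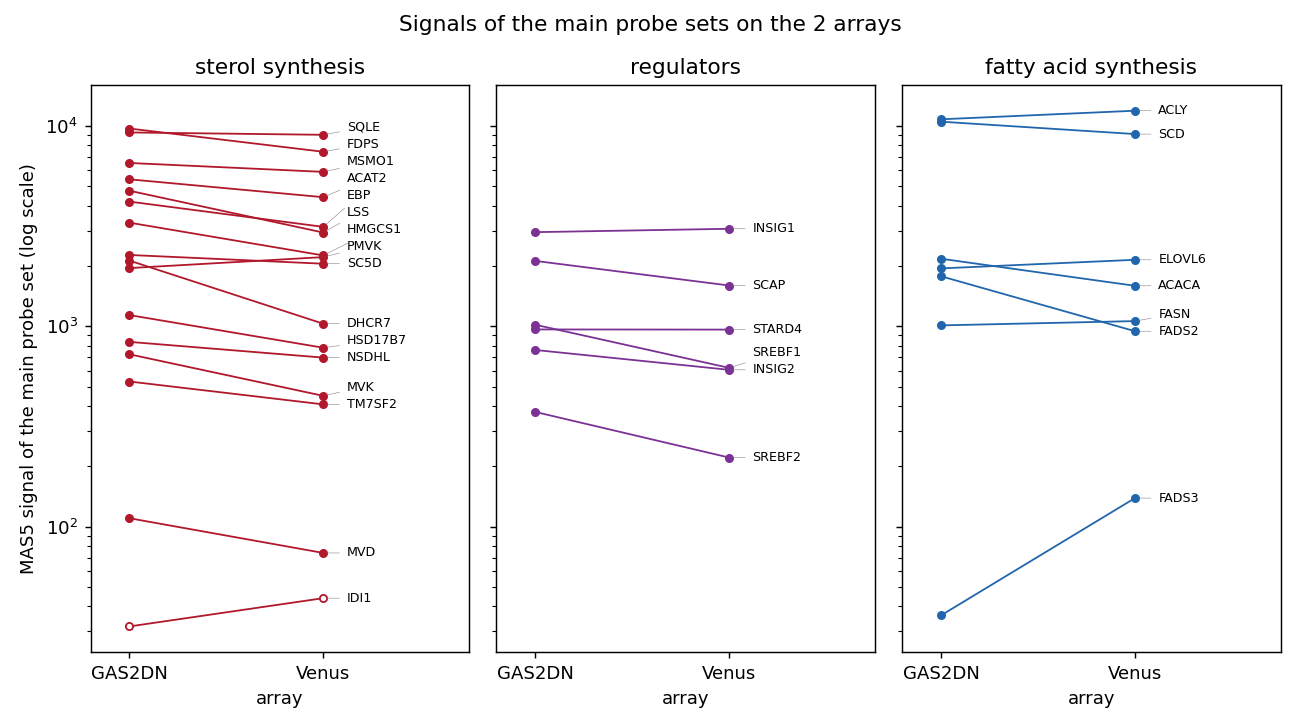
Signal of the main probe set (log axis) on the GAS2DN array (left of each pair) and on the Venus array (right). Measured members are filled, IDI1 is open because its main probe set was dim on both arrays, and a line joins the 2 arrays. Of the 28 filled lines, 22 are higher at the GAS2DN end, as for DHCR7 with 2128 in GAS2DN and 1029 in Venus cells, and FADS3 is lower at that end, with 36.1 in GAS2DN and 139 in Venus cells.

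The mevalonate enzymes were higher in 4 of 5, with a median log2 ratio of 0.54. ACAT2, the cytosolic thiolase that joins acetyl-CoA units, had a signal of 5412 in GAS2DN and 4407 in Venus cells, a log2 ratio of 0.30. HMGCS1, the synthase that makes HMG-CoA, had 3289 in GAS2DN and 2257 in Venus cells, a log2 ratio of 0.54. Its second probe set had 428 and 298 on the GAS2DN and Venus arrays, a log2 ratio of 0.52, so both readings of HMGCS1 gave nearly the same difference. MVK, the mevalonate kinase, had 725 in GAS2DN and 450 in Venus cells, a log2 ratio of 0.69. Its other eligible probe sets ranged from -1.26 to 0.44, with an SD of 0.87 over the 4, so no direction can be given for MVK beyond its brightest probe set. PMVK, the next kinase, was the only measured sterol gene below 0, with 1951 in GAS2DN and 2214 in Venus cells, a log2 ratio of -0.18. MVD, the decarboxylase that follows, had 110 in GAS2DN and 73.9 in Venus cells, a log2 ratio of 0.58, at signals where probe sets of 1 gene differed by an SD of 0.77.

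Between the isoprenoids and lanosterol the differences were uneven. For IDI1 the main probe set had 31.8 in GAS2DN and 44.0 in Venus cells, below the median on both arrays. Its 3 other probe sets, which end in _x_at, were eligible and had log2 ratios of 0.37, 0.21 and -0.01. The brightest of them had 11917 in GAS2DN and 9194 in Venus cells, so IDI1 was dim only in its main probe set. FDPS, the farnesyl pyrophosphate synthase, had 9700 in GAS2DN and 7428 in Venus cells, a log2 ratio of 0.39. SQLE, the epoxidase at which oxygen enters the pathway, had nearly equal signals of 9273 in GAS2DN and 9026 in Venus cells. Its other eligible probe sets had log2 ratios of 0.16, 0.39 and -0.72. LSS, the synthase that closes the ring of lanosterol, had 2 eligible probe sets that lay close together, as did those of HMGCS1 and NSDHL. Its main probe set had 4748 in GAS2DN and 2935 in Venus cells, a ratio of 1.62 and a log2 ratio of 0.69, and its second probe set had 152 and 92.7 on the GAS2DN and Venus arrays, a log2 ratio of 0.71. The third probe set of LSS was dim on both arrays, with 32.5 in GAS2DN and 53.3 in Venus cells, a log2 ratio of -0.71.

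Downstream of lanosterol, all 7 measured genes had a higher signal in GAS2DN cells, with a median log2 ratio of 0.38. So did all 12 of their eligible probe sets, against 54.6% of eligible probe sets of all genes. An EBP probe set among the 12 reached the median only on the GAS2DN array, with 76.2 there and 34.3 in Venus cells. Its sign was therefore fixed by the filter. TM7SF2, a sterol reductase of the nuclear envelope and endoplasmic reticulum, had 530 in GAS2DN and 408 in Venus cells, a log2 ratio of 0.38. MSMO1, the methyl sterol oxidase, had 6531 in GAS2DN and 5895 in Venus cells, a log2 ratio of 0.15. NSDHL, the dehydrogenase that acts next, had log2 ratios of 0.26 and 0.28 in its 2 probe sets, with 836 in GAS2DN and 698 in Venus cells for the brighter one. HSD17B7, the ketoreductase of the same step, had 1138 in GAS2DN and 781 in Venus cells, a log2 ratio of 0.54, from an _x_at probe set that may also bind related sequences. EBP, the sterol isomerase, had 4190 in GAS2DN and 3134 in Venus cells, a log2 ratio of 0.42, with 0.16, 0.19 and, from a Venus signal of 34.3, 1.15 in the others. SC5D, a sterol desaturase, had 2269 in GAS2DN and 2052 in Venus cells, a log2 ratio of 0.15.

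DHCR7, the reductase that yields cholesterol in the final step, had the highest ratio of the 28 genes. Its main probe set had a signal of 2128 in GAS2DN and 1029 in Venus cells, a ratio of 2.07 and a log2 ratio of 1.05. The second probe set had 758 in GAS2DN and 743 in Venus cells, a log2 ratio of 0.03. The 2 readings of the same gene thus differed by an SD of 0.72, above the 0.51 and 0.55 of the signal classes they lie in, and a higher DHCR7 signal rested on the first alone. It was the only member over 2-fold higher, where 7.91% of all measured genes were. Most genes of that size had at least 1 signal under the upper quartile of its array. Among the 7433 genes whose 2 signals both reached the upper quartile, 0.0673% were over 2-fold higher. These 5 genes were DHCR7, PLXDC2, TGFB1I1, TRAF5 and TTN.

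Among the regulators, both SREBP genes were over 1.5-fold higher and the others lay closer to equal. SREBF1 had a signal of 1018 in GAS2DN and 620 in Venus cells, a log2 ratio of 0.72, and its second probe set had 116 and 62.4 on the GAS2DN and Venus arrays, a log2 ratio of 0.90. SREBF2 had 374 in GAS2DN and 221 in Venus cells, a log2 ratio of 0.76. Its other probe sets had log2 ratios of 0.07 and 1.02, so all 3 were above 0 but 1 was close to equal signals. SCAP, the escort of the SREBPs, had 2120 in GAS2DN and 1598 in Venus cells, a log2 ratio of 0.41. INSIG1, which retains SCAP and is itself a classical SREBP target, had 2949 in GAS2DN and 3066 in Venus cells in its main probe set. Its other probe sets had log2 ratios of 0.31 and 0.26, and no direction can be given for INSIG1. INSIG2, its relative, had 762 in GAS2DN and 606 in Venus cells, a log2 ratio of 0.33. STARD4, a carrier of sterol between membranes, had practically equal signals of 964 in GAS2DN and 963 in Venus cells.

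Of the enzymes that make and lengthen fatty acids, 1 of 4 was higher, with a median log2 ratio of -0.11. ACLY, the lyase that supplies cytosolic acetyl-CoA, had 10786 in GAS2DN and 11903 in Venus cells, a log2 ratio of -0.14, with -0.01 and -0.09 in its others. ACACA, the carboxylase that commits acetyl-CoA to fatty acids, had 2173 in GAS2DN and 1592 in Venus cells, a log2 ratio of 0.45, and 0.33 in its second probe set. FASN, the fatty acid synthase, had 1010 in GAS2DN and 1062 in Venus cells, a log2 ratio of -0.07, and its second probe set was dim with 0.44. ELOVL6, an elongase, had 1944 in GAS2DN and 2147 in Venus cells, a log2 ratio of -0.14, with 0.21 and -0.18 in its others. Only ACACA was above 0 in each of its eligible probe sets, and ACLY was below 0 in each of its own.

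The desaturases diverged. SCD, which makes monounsaturated fatty acids, had 10496 in GAS2DN and 9103 in Venus cells, a log2 ratio of 0.21. Its other probe sets had 0.29, 0.53 and -1.96, the last from 41.2 in GAS2DN and 160 in Venus cells. FADS2, the first desaturase of polyunsaturated fatty acid synthesis, had 1777 in GAS2DN and 945 in Venus cells, a ratio of 1.88 and a log2 ratio of 0.91. Its second probe set had 132 in GAS2DN and 28.3 in Venus cells, a log2 ratio of 2.22, whose size rests on a dim Venus signal. FADS3, another member of that family, went the other way in both probe sets. The brighter one had 36.1 in GAS2DN and 139 in Venus cells, a ratio of 0.260 and a log2 ratio of -1.95. The other had 6.005 in GAS2DN and 105 in Venus cells, a log2 ratio of -4.13. Both GAS2DN signals of FADS3 were below the array median, and with signals below the median raised to it the log2 ratio was -1.01. FADS3 was the only member over 2-fold lower, where 4.45% of all measured genes were, and it was not counted when both signals had to reach the median.

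**Figure D2:**
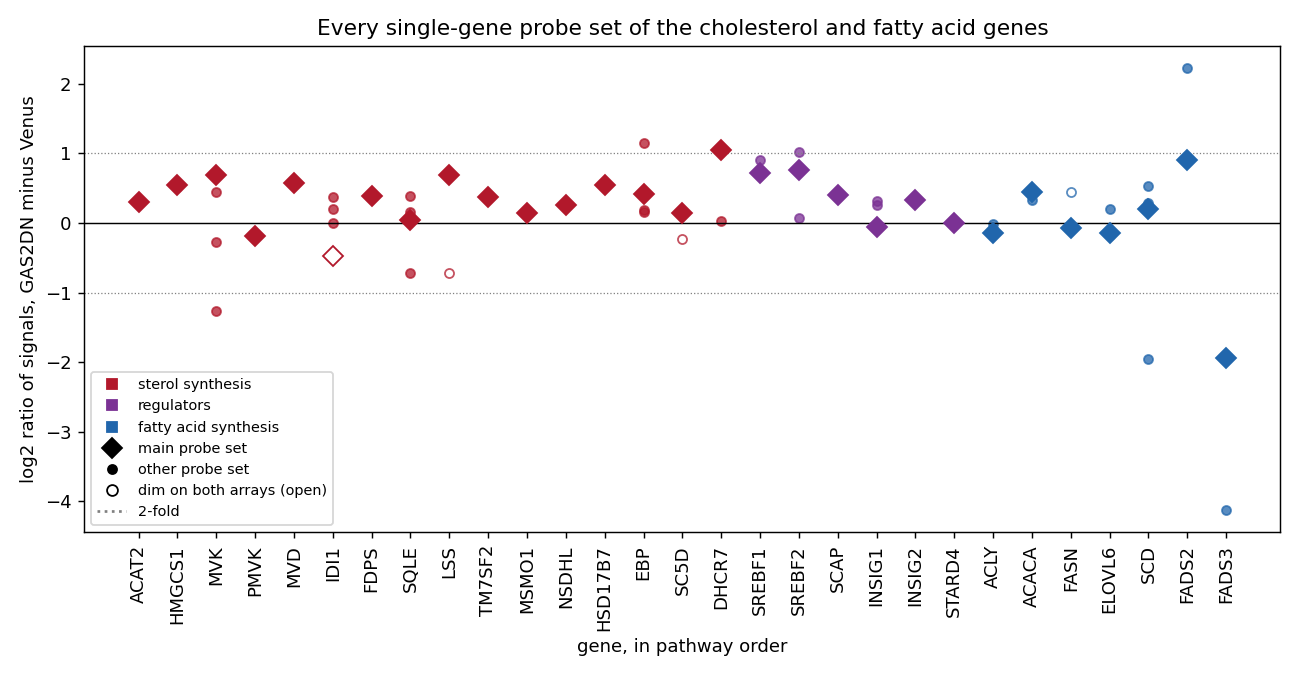
Log2 ratio, GAS2DN minus Venus, of every probe set of the members in pathway order, with the main probe set, the other eligible probe sets and the dim ones marked apart, and coloured by sterol synthesis, regulators and fatty acid synthesis. The eligible probe sets of LSS, HMGCS1 and NSDHL lie close together, MVK and DHCR7 have widely spaced ones, a dim probe set of LSS lies below 0, and both probe sets of FADS3 lie below 0.

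Counted over all members, 22 of 28 had a log2 ratio above 0. A signal over 1.5-fold higher was found for MVK, LSS, DHCR7, SREBF1, SREBF2 and FADS2, which are 6 of 28 where 14.3% of measured genes were, and over 1.5-fold lower for FADS3, 1 of 28 where 9.12% were. The members were mostly bright, and 25 had both signals in the upper quartile of their array. Of these, 5 were over 1.5-fold higher, namely MVK, LSS, DHCR7, SREBF1 and FADS2, where 1.74% of bright genes were. Their second-brightest probe sets had log2 ratios of -0.28 for MVK and 0.03 for DHCR7, against 0.71 for LSS, 0.90 for SREBF1 and 2.22 for FADS2. None of the 25 was over 1.5-fold lower, where 3.55% of bright genes were, or over 2-fold lower, where 0.753% were. In that class the log2 ratio was above 0 in 13 of 14 sterol genes, with a median of 0.38, in 4 of 5 regulators, with 0.33, and in 3 of 6 fatty acid genes, with 0.07. For bright genes as a whole the share was 53.5%, the median 0.02 and the SD 0.30. When all measured genes were ordered into 20 equal classes by mean signal, 13 members lay above the 90th percentile of the log2 ratio in their class, where 10.1% of genes do, and 1 lay below the 10th. The 13 were 8 sterol genes (ACAT2, HMGCS1, MVK, FDPS, LSS, HSD17B7, EBP and DHCR7), 3 regulators (SCAP, SREBF1 and SREBF2) and 2 fatty acid genes (ACACA and FADS2).

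**Figure D3:**
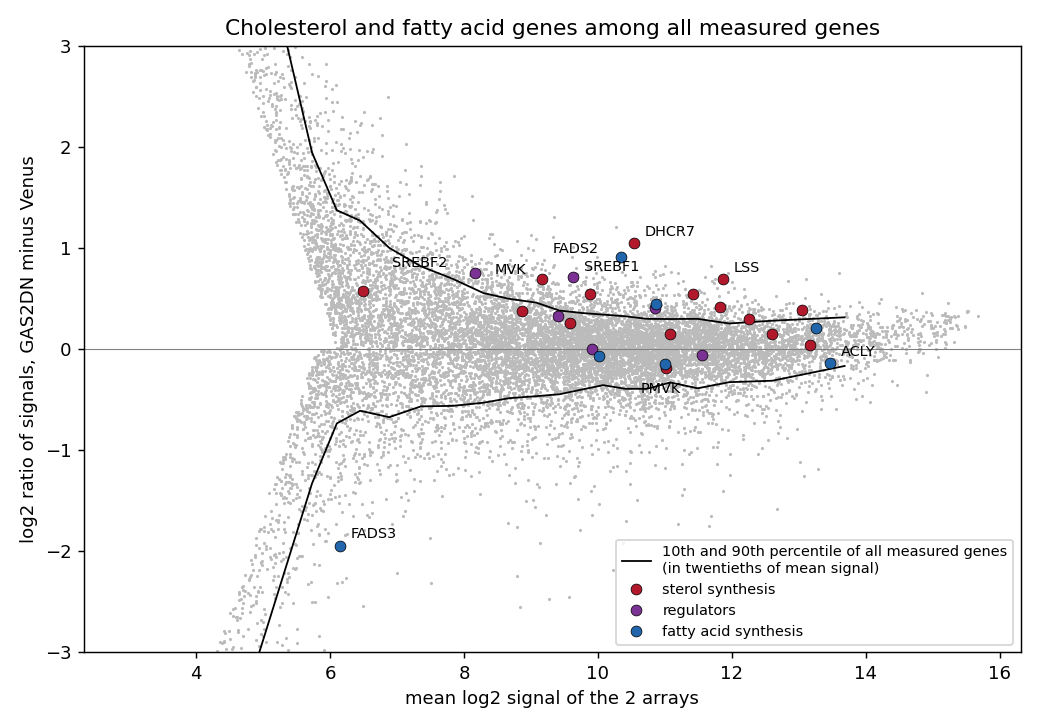
Log2 ratio, GAS2DN minus Venus, against the mean log2 signal of the 2 arrays for all measured genes (grey) and for the members (colours), with lines at the 10th and 90th percentile of each of 20 equal classes of mean signal. The axis leaves out 322 measured genes with log2 ratios beyond its ends; 13 members lie above the upper line and FADS3 alone lies below the lower one.

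Agreement between probe sets gave a further view of the same arrays. Of the 17 members with at least 2 eligible probe sets, 9 were above 0 in every one, namely HMGCS1, LSS, NSDHL, EBP, DHCR7, SREBF1, SREBF2, ACACA and FADS2, where 21.9% of the 6422 genes with as many were. ACLY and FADS3 were below 0 in every one, where 17.5% were. The other 6 were mixed, namely MVK, IDI1, SQLE, INSIG1, ELOVL6 and SCD. Both probe sets of FADS3 were eligible only through their Venus signals, so the filter fixed their sign and their agreement adds nothing. The FADS2 and EBP probe sets with Venus signals of 28.3 and 34.3 were eligible only through GAS2DN, which fixed their sign upward. By branch, 26 of 31 eligible probe sets were above 0 in sterol synthesis, 10 of 11 in the regulators and 8 of 17 in fatty acid synthesis. The counts for sterol and fatty acid synthesis include probe sets whose sign was fixed in this way.

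The promoter sequences show which letters the members share apart from their signals. Windows of 250 bases before annotated start sites in RefSeq (GRCh38.p14) were matched by symbol for 28 of the 32 genes, in 38 windows, some of which overlap within a gene; no entry was matched for ACAT2, FDFT1, SQLE and FASN. SREBP is known to bind a sterol regulatory element, here searched as TCACNCCAC, together with NF-Y, searched as CCAAT, and Sp1, searched as GGGCGG, each on both strands, and no match of a motif overlapped one of another. CCAAT was present in 15 of 20 windows of sterol genes, covering 13 of 15 genes, in 3 of 7 windows of regulators and in 6 of 11 windows of fatty acid genes, against 32.01% of the 35116 windows of all genes. GGGCGG was present in 34 of the 38 windows, against 42.6% of all. TCACNCCAC was present in 1 of the 38, that of SREBF2, against 0.883% of all. The windows of all genes include unmeasured genes and were not matched to the members in signal or base composition. The shares therefore do not show that a motif is particular to the pathway. The windows printed are those of SREBF2, with the only match to the sterol element, of LSS and HMGCS1, whose eligible probe sets lay close together, of DHCR7 with the highest ratio, and of FADS2 and FADS3, which went opposite ways; the windows of DHCR7, HMGCS1 and FADS2 are 1 of several for these genes. They run 5′ to 3′ on the strand of the gene up to the base before the start, and capitals mark CCAAT, its complement ATTGG, and the match to TCACNCCAC.
SREBF2, chr22:41832855-41833104, plus strand: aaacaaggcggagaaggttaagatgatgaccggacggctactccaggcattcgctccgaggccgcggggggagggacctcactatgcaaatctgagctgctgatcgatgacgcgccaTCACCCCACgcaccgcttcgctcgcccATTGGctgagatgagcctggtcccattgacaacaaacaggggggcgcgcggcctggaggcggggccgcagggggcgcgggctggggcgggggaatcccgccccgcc
HMGCS1, chr5:43313413-43313662, minus strand: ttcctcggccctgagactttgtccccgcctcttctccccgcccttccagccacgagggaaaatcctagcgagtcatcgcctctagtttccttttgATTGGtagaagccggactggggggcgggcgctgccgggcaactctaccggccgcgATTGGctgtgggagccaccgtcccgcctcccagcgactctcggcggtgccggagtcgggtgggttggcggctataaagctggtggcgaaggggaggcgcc
LSS, chr21:46228775-46229024, minus strand: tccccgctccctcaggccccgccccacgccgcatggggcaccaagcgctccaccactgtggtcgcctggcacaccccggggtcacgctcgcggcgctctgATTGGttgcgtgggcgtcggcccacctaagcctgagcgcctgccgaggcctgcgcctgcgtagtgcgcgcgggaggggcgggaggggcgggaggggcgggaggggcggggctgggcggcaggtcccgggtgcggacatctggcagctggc
DHCR7, chr11:71448394-71448643, minus strand: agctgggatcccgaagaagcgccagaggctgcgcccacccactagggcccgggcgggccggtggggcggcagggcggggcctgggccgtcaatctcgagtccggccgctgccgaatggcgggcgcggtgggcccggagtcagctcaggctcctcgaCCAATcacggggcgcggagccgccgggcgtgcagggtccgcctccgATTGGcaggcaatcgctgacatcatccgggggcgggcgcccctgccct
FADS2, chr11:61815953-61816202, plus strand: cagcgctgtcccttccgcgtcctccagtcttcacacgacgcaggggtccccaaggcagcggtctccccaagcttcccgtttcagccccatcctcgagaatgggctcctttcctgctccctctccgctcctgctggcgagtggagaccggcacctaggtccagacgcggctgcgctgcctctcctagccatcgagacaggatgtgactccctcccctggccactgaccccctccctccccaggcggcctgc
FADS3, chr11:61891546-61891795, minus strand: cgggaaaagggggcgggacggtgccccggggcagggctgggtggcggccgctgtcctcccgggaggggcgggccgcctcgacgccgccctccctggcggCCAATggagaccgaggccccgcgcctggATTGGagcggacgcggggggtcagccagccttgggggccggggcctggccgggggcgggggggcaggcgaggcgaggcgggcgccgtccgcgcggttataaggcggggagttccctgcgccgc
In SREBF2 the match to the sterol element was followed, closer to the start, by an ATTGG. The printed windows of HMGCS1 and DHCR7 held 2 matches to CCAAT each, as did that of FADS3, which had a lower signal in GAS2DN cells. The printed window of FADS2, with a higher signal, held none. The windows of HMGCS1, DHCR7 and FADS2 that are not printed held none either, so for HMGCS1 and DHCR7 the matches depend on the start site. A match of letters is a description of the sequence and does not show that a factor is bound there in MEG-01 cells. Nor does the lack of a match to the letters searched, within 250 bases, show that a gene has no sterol element.

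Genes around the pathway were read as 4 further groups of 39 genes, of which 33 were measured, with 20 above 0 and a median log2 ratio of 0.10. Of the proteases that release the SREBPs, MBTPS2, which makes the second cut, had 1420 in GAS2DN and 939 in Venus cells, a log2 ratio of 0.60, and 0.84 in its other eligible probe set, and MBTPS1, which makes the first, had 732 in GAS2DN and 655 in Venus cells, a log2 ratio of 0.16, and -0.13 in its other probe set. Genes of sterol traffic, storage and efflux were above 0 in 10 of 11, with a median of 0.23 and a range of -0.14 to 0.53, so that none was over 1.5-fold. Of their 24 eligible probe sets 17 were above 0, with a median of 0.15, and NPC1, SOAT1, ABCG1, MYLIP and OSBP, named after their values were seen, had probe sets on both sides of 0. The side branches use isoprenoids for prenylation, dolichol and ubiquinone and also draw on mevalonate. Their genes were above 0 in 2 of 8, with a median of -0.09. Of their 16 eligible probe sets 6 were above 0, with a median of -0.06. GGPS1, PGGT1B, PDSS1, PDSS2 and DHDDS, named after their values were seen, had probe sets on both sides of 0. In this group FNTB, a subunit of the farnesyltransferase, was over 2-fold higher, with 210 in GAS2DN and 94.2 in Venus cells. Genes of fatty acid supply, elongation and use were above 0 in 6 of 12, with a median of 0.02. The acyl-CoA synthetase ACSL4 had 502 in GAS2DN and 1079 in Venus cells, a log2 ratio of -1.11, though up to 0.66 in its other probe sets. ACSL1, of the same family, had 2692 in GAS2DN and 4200 in Venus cells, a log2 ratio of -0.64, and 0.11 in its other probe set.

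The processing set the 2% trimmed mean signal to 500.1 on each array, while the medians given above differed. The ratio of 3′ to 5′ control probe sets was 1.02 on the GAS2DN and 1.01 on the Venus array for GAPDH, and 2.17 and 2.32 on the same arrays for ACTB. GAS2 was read by 1 probe set with signals below the median, 34.7 in GAS2DN and 24.3 in Venus cells, so the arrays give little check of the labels. Markers of megakaryocytes were above 0 in 5 of 6 measured genes, with a summed signal over 9 of 11 genes of 16309 in GAS2DN and 12702 in Venus cells; ITGA2B, the platelet integrin, was bright, with 9238 in GAS2DN and 7149 in Venus cells, while PF4, PPBP and VWF were dim on both arrays. Few markers of other cell types were measured. Fibroblast markers, 1 of 5 measured, had a summed signal of 235 in GAS2DN and 197 in Venus cells. Lymphocyte markers, 2 of 5 measured, had 336 in GAS2DN and 250 in Venus cells, and monocyte markers, 1 of 4 measured, had 293 in GAS2DN and 347 in Venus cells. The sums of megakaryocyte, fibroblast and lymphocyte markers were higher in GAS2DN cells, as the signals of most sterol genes were. Their part in the result was not tested. The sums of fibroblast, lymphocyte and monocyte markers included genes whose main probe set was dim on both arrays. The median signal was itself higher on the GAS2DN array, 69.1 against 55.6 on the Venus array. These sums therefore do not show that other cell types were present. In RNA from a whole population a higher signal per cell and a larger share of cells with a high signal cannot be told apart.

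The medians of the 3 groups were recomputed under 12 other settings of filter, scaling and choice of probe set. The sterol median stayed above 0 in all 12, between 0.22 and 0.39, and so did that of the regulators, between 0.20 and 0.39. The fatty acid median lay between -0.19 and 0.25 and was above 0 in 4 of 12. The sterol median was the higher of these branches in 11 of 12. Some settings left a median exactly as it was, 2 of them for sterol genes, 5 for regulators and 4 for fatty acid genes.

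**Figure D4:**
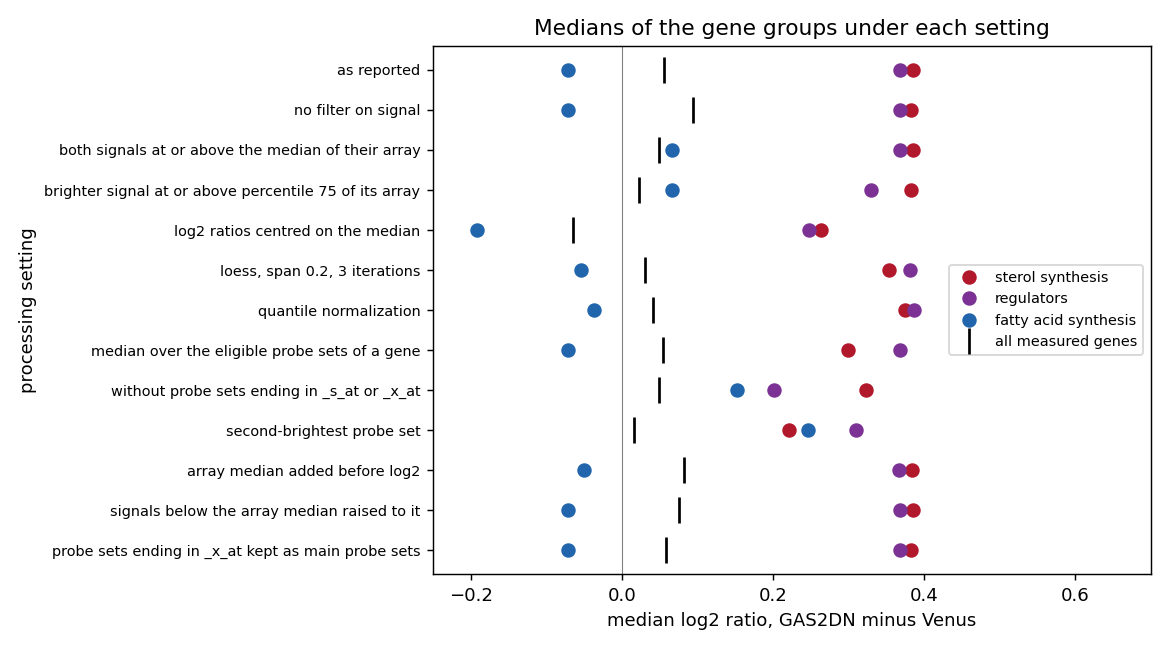
Median log2 ratio, GAS2DN minus Venus, of sterol synthesis, regulator and fatty acid genes (circles) and of all measured genes (bars) as reported and under each of 12 other settings. Sterol and regulator medians lie above 0 throughout, and the fatty acid median passes the sterol median only with the second-brightest probe set.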

How the data were processed

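Total RNA of MEG-01 cells was labelled with a 3′ IVT kit and read on 2 arrays, 1 for GAS2DN and 1 for Venus. The authors deposited log2 MAS5 signals, and the submitters' processing notes name MAS5 without a version; detection calls were not used here. Of 54675 probe sets 62 were controls, and the platform's annotation gave 41091 to 1 gene, 1801 to several and 11721 to none. Symbols of 41037 probe sets were updated by gene identifier. Only probe sets of 1 gene were used, and _x_at ones became main probe sets only where the gene had no other. The text names all 32 members, and of the related lists both SREBP proteases and the measured genes over 1.5-fold. Of the sterol traffic and isoprenoid side branch lists it also names genes with probe sets on both sides of 0, chosen after their values were seen. The members and lists were chosen with earlier results of these data known. A fold of 2 was the call, with 1.5 and 3 as alternatives. Values were grouped by the labels' transduction. Alternatives changed the signal filter, the scaling (centring, loess with span 0.2 and 3 iterations, quantile), the choice of probe set and the treatment of low signals. The number of arrays limits the precision, since each condition had 1. The steps were tested on simulated data. The software was matplotlib 3.10.9, statsmodels 0.14.6 and scipy 1.17.1, with pandas 2.3.3 and numpy 2.4.6 in Python 3.11.15.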

Additional observations from a re-analysis of the deposited data

How the results depend on the processing

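Of 310 values of single members under 12 alternatives, 164 were identical to the reported value, most of them because filters and the _x_at choice do not alter a ratio. Of the 146 that differed, 136 stayed within the spread between probe sets of 1 gene and 10 moved by more. The range was 0.03 to 1.08 for DHCR7, -0.28 to 0.71 for MVK, 0.07 to 0.76 for SREBF2, 0.79 to 2.22 for FADS2 and -4.13 to -0.89 for FADS3, against 0.57 to 0.72 for LSS, 0.42 to 0.56 for HMGCS1 and 0.59 to 0.90 for SREBF1. The sterol median was 0.26 with log2 ratios centred on the median and 0.22 with the second-brightest probe set. The fatty acid median was 0.15 once _s_at and _x_at probe sets were left out and 0.25 with the second-brightest. The difference of these medians was 0.17 under the first and -0.024 under the second of these settings, over 12 and 14 genes. Centring shifted the median of all measured genes to -0.06. Members over 2-fold lower numbered 0 when both signals had to reach the median, when the brighter had to reach percentile 75, and with the array median added before log2. Members over 2-fold higher numbered 0 after centring, 6 at 1.5-fold and 0 at 3-fold. Keeping _x_at probe sets as main ones was chosen after seeing the data. No paired analysis was possible because each condition had 1 array. The spread between probe sets widened toward low signals, so ratios from the dimmest probe sets, such as those of FADS3, are the least precise.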
